A study of Homo sapiens with 9 samples.

Results

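The zinc finger cluster on 19p12 was taken here as the protein-coding genes of GRCh38 with a symbol beginning with ZNF and a start between 19 and 24.5 Mb on chromosome 19. The rule found 37 genes among 20033 protein-coding genes, and it used no measured value. The first was ZNF101 and the last ZNF254, so the members span chr19:19668153-24129968, which is 4.46 Mb, and their bodies fill 34.0% of that span. The interval reaches slightly beyond the cytogenetic band toward the tip of the short arm. Just inside the limits, ZNF101 was covered by H3K9me3 domains over 39.5% of its body on average and ZNF254 over 6.46%. No other ZNF gene of the table lies close to the limits. The nearest, ZNF333 at 39.7% and ZNF536 at 71.2%, start 4.31 Mb before the lower limit and 5.73 Mb past the upper limit. A further 24 protein-coding genes start within the same limits and are described as neighbours.

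Most genes of this cluster belong to the KRAB zinc finger family, whose proteins bind DNA through tandem C2H2 zinc fingers and recruit the corepressor TRIM28 through the KRAB domain. TRIM28 brings the methyltransferase SETDB1, which deposits H3K9me3, and many family members silence transposable elements this way. The family grew by tandem duplication on primate chromosome 19, and the gene clusters are themselves known to carry H3K9me3 in many cell types. ZNF91 and ZNF93, both members here, are known repressors of SVA and LINE-1 retrotransposons.

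H3K9me3 was profiled by Cut&Run, in which an antibody-tethered nuclease releases the marked chromatin for sequencing, in hTERT RPE-1, an established telomerase-immortalised line of human retinal pigment epithelium. The cells stably overexpressed lamin B1 fused to mCherry (the LmnB1 clones LmnB1_16 and LmnB1_6) or mCherry alone (the clones mCherry_3 and mCherry_4). Each clone was sampled in 2 biological replicates, giving 4 libraries per construct. All of them received doxycycline at 0.05 ug/mL for 24 hours, and all lists were called against 1 input, so no untreated or parental H3K9me3 library stands beside them. A construct is thus represented by 2 clonal lines, and differences between clones and between constructs cannot be fully separated. The files hold domains and no RNA, so neither the overexpression of LmnB1 nor markers of retinal pigment epithelium could be checked. Each library has a deposited list of H3K9me3 domains, and the value given for a gene is its covered percent, the share of its body lying within listed domains. A gene at 0 lay outside the list, which holds only domains past a log2 enrichment over input of 0.6, and is not shown to lack the mark. Members are near-identical copies in places, and the sources used here do not say how reads matching several copies were counted, so each gene's value carries that uncertainty.

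Libraries differed in depth and in how much of the genome their lists hold. H3K9me3 reads within all domains ranged from 2855378 in mCherry_4 replicate 1 to 10321442 in LmnB1_16 replicate 1, and listed length from 320 Mb in mCherry_4 replicate 2 to 646 Mb in LmnB1_6 replicate 1. The shortest lists were those of mCherry_4 replicate 2 and LmnB1_6 replicate 2 (357 Mb), and these are also the libraries with the least coverage of the cluster. Depth relative to the shared input, inferred from the authors' log2 values, lay between 0.880 and 1.01 in the 4 LmnB1 libraries and between 0.421 and 0.859 in the 4 mCherry libraries. Depth and construct therefore cannot be told apart. Counts of the mCherry_3 replicates over 229 domains with identical coordinates differed by no more than sampling noise (chi-square per degree of freedom 1.08, p = 0.197), whereas their lists differed, so both were kept and values with their mean are given where they change a count.

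Promoters of the cluster ranged from those inside H3K9me3 domains in every library to those inside none. RefSeq promoter windows on GRCh38.p14, from 250 bases before the start site to 50 after it, matched 29 of the 37 members. The window was wholly covered in all 8 libraries for 6 genes (ZNF93, ZNF43, ZNF208, ZNF257, ZNF730 and ZNF726). It was covered in none for 9 (ZNF101, ZNF85, ZNF430, ZNF714, ZNF431, ZNF708, ZNF724, ZNF675 and ZNF254), and in some libraries for the other 14. Domains are called in 1 kb windows, so the list cannot resolve a start site within its kilobase. The windows of 2 always-covered genes, ZNF208 at chr19:22010894-22011193 (minus strand) and ZNF726 at chr19:23914636-23914935 (plus strand), are shown so that they can be read beside never-covered ones. The never-covered windows are ZNF714 at chr19:21081953-21082252 (plus strand), ZNF724 at chr19:23250345-23250644 (minus strand) and ZNF85 at chr19:20923001-20923300 (plus strand). Sequences run 5′ to 3′ on the gene's strand, and capitals mark the 10-letter word that the most member promoters hold.
ZNF208: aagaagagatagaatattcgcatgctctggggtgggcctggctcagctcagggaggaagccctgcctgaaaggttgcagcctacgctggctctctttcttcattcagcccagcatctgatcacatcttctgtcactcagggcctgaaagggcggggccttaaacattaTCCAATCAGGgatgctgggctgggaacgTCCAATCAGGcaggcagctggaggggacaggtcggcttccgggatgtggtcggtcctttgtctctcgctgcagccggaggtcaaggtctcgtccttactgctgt
ZNF726: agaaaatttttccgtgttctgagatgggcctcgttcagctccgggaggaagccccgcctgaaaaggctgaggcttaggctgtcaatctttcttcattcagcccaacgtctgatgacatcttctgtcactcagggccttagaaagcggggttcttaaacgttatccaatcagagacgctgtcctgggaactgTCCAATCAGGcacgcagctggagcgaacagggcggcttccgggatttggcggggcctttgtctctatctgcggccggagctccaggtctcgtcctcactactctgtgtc
ZNF714: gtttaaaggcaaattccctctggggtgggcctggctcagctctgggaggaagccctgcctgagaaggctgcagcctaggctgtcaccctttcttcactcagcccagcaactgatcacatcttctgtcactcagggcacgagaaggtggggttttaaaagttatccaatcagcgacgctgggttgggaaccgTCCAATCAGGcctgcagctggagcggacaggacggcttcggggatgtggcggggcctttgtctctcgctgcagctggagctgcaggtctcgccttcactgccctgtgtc
ZNF724: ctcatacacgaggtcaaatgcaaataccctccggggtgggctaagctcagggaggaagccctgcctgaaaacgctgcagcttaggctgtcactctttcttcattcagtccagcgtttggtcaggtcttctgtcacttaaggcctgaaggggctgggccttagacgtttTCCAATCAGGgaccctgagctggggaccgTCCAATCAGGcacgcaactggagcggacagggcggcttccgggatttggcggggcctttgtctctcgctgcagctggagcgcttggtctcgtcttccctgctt
ZNF85: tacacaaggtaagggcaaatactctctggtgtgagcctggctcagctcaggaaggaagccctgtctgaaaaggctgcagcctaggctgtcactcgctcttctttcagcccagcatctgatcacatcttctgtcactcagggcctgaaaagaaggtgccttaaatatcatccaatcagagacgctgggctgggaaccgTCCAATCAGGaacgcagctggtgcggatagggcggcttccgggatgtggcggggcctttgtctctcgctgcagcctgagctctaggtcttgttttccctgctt
The word, TCCAATCAGG, holds the letters CCAAT of the CCAAT box, a promoter element bound by the factor NF-Y. It was chosen after the sequences were seen, as the word found in most member promoters, and both strands were searched. It occurred in 26 of 29 member promoters (89.7%), always on the gene's own strand, and at 2 places in 7 of them. Its first occurrence began 30 to 88 bases before the start site, with a median of 58. The same word occurred in 8.95% of the promoters of ZNF genes elsewhere on chromosome 19, in 6.42% of those of ZNF genes on other chromosomes, and in 78 of all 15842 promoters (0.492%). ZNF257, ZNF493 and ZNF723 lacked the word, and CCAAT itself, on either strand, was in 29 of 29 member promoters against 36.4% of all. Duplicated genes share ancestry, so these promoters are not independent of each other. The word did not divide the covered from the uncovered promoters, being in 5 of the 6 that were covered in all 8 libraries and in 9 of the 9 that were covered in none. Member promoters held a median of 10 CG dinucleotides, against 22 over all promoters, with 12.5 in the always-covered set and 10 in the never-covered set.

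Most genes of the cluster lay mainly inside H3K9me3 domains. The mean over the 8 libraries was at least 80% for 21 of the 37 members, between 15% and 80% for 10, and under 15% for 6. Of the members, 22 were touched by a domain in all 8 libraries, 14 in some of them and 1 in none. The median member had a mean of 87.7%.

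The genes covered throughout lay in both arms of the cluster around a low stretch. ZNF257 (chr19:22052484-22091480) and ZNF726 (chr19:23914886-23944714) were covered over 100% of their bodies in all 8 libraries. ZNF682 (chr19:19995131-20039505) was at 100% in 7 libraries and at 98.9% in mCherry_3 replicate 1. ZNF208 (chr19:21939815-22010943) was at 100% in LmnB1_16 replicates 1 and 2, LmnB1_6 replicate 1 and mCherry_3 replicate 2, and at 94.4% in the other 4. These 4 genes were the members with at least 90% in every library, and 17 members had at least 50% in every library. With each list shortened, to its better-scoring domains or to equal length, ZNF208 and ZNF257 alone kept at least 90% in every library. Of all 20033 protein-coding genes, 0.784% were at least 90% covered in every library, against 10.8% of the members. Among the 2304 genes tested, which had to have a mean of at least 5%, the share was 6.81%.

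ZNF43, ZNF728, ZNF93, ZNF14, ZNF676 and ZNF90 followed in the order of their lowest library. ZNF43 was at 100% in 6 libraries, with 93.5% in LmnB1_6 replicate 2 and 89.4% in mCherry_4 replicate 2. ZNF93, the LINE-1 repressor, was at 100% in 6 libraries and at 85.6% in those same LmnB1_6 and mCherry_4 replicates, so its construct means were equal at 96.4% ± 7.22 (SD, n = 4). The 2 libraries with the shortest lists held the low values of both genes. ZNF728 was at 88.8% in mCherry_3 replicate 1 and mCherry_4 replicate 2 and at 100% in the other 6, and ZNF90 was at 79.15% in LmnB1_6 replicate 2 and at 100% in the other 7. ZNF14 had its lowest value, 81.8%, in LmnB1_6 replicate 1 and mCherry_4 replicate 2. ZNF676 was at 100% in all 4 LmnB1 libraries and both mCherry_3 replicates, and at 81.5% and 81.2% in mCherry_4 replicates 1 and 2.

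**Figure D1:**
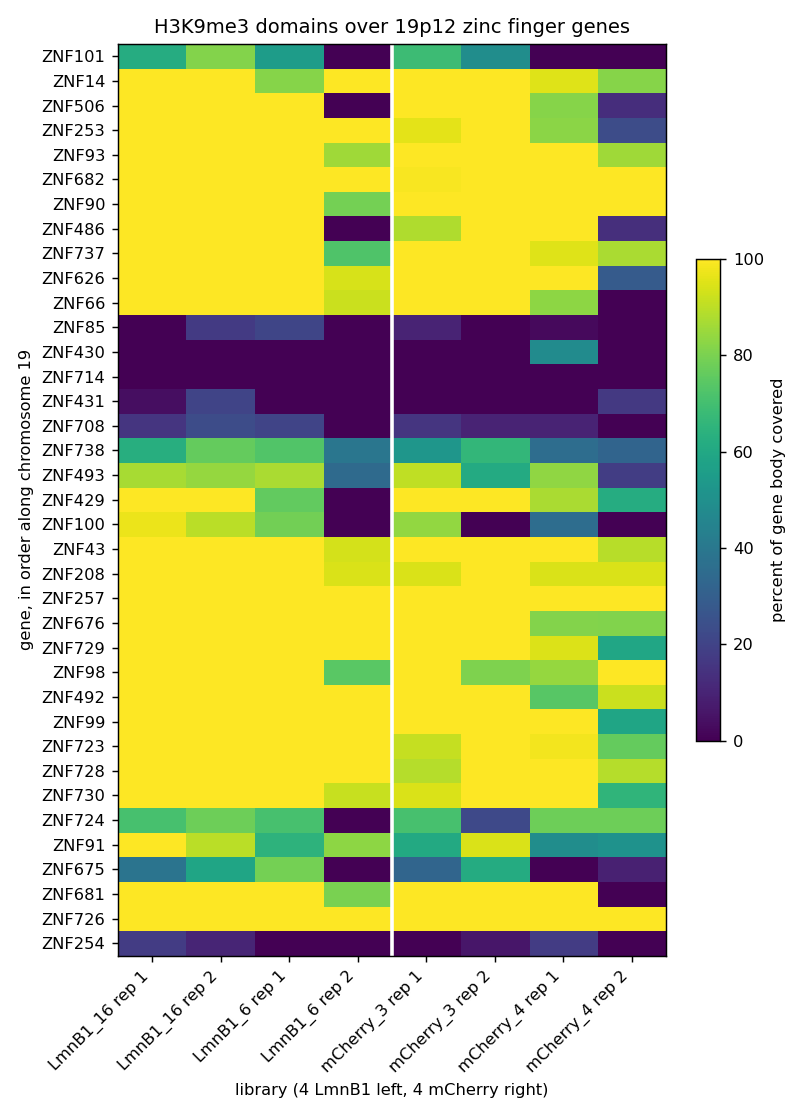
Percent of each gene body covered by H3K9me3 domains (colour, 0 to 100%) for the 37 genes in chromosomal order (rows) and the 8 libraries (columns, LmnB1 left of the white line and mCherry right of it). The block from ZNF85 to ZNF708 is dark apart from ZNF430 in mCherry_4 replicate 1 (48.2%), and LmnB1_6 replicate 2 and mCherry_4 replicate 2 hold most of the other dark cells.

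The bodies of 5 neighbouring genes in the middle of the cluster, ZNF85 to ZNF708, held few listed domains. The low stretch itself ran from ZNF85 to ZNF431. A step of 25 kb almost wholly between ZNF431 and ZNF708 was at 0 in LmnB1_6 replicate 2 and mCherry_4 replicate 2. In the other libraries it was listed over at least 96%. ZNF714 (chr19:21082203-21125094) was at 0 in all 8 libraries, the only member for which that held. ZNF430, just before it, was at 48.2% in mCherry_4 replicate 1 and at 0 in the other 7 libraries. ZNF431, just after it, was at 3.80%, 20.4% and 16.7% in LmnB1_16 replicates 1 and 2 and mCherry_4 replicate 2, and at 0 in the rest. Of these 3 genes, ZNF431 alone had domains in libraries of both constructs. ZNF85 was at 0 in LmnB1_16 replicate 1, 17.1% in LmnB1_16 replicate 2, 20.8% in LmnB1_6 replicate 1, 9.83% and 2.54% in replicates 1 of mCherry_3 and mCherry_4, and 0 in the other 3. ZNF708 ranged from 0 in LmnB1_6 replicate 2 and mCherry_4 replicate 2 to 23.1% in LmnB1_16 replicate 2. The sixth member under 15%, ZNF254, is the last and longest gene of the cluster (96.52 kb) and ranged from 0 in 4 libraries to 17.6%.

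The edges of the low stretch from ZNF85 to ZNF431 fell at similar places in most libraries. Before ZNF85, the last listed base lay 3.25 to 47.3 kb from the gene's start in 7 libraries and 155 kb away in mCherry_4 replicate 2. The next domain of at least 30 kb began between positions 21199001 and 21260001 in 6 libraries, at 21417001 in LmnB1_6 replicate 2 and at 21519001 in mCherry_4 replicate 2. Between the starts of ZNF85 and ZNF431, the listed share was 0 in 4 libraries and at most 14.6% in the others. The longest run of 1 kb windows in no list, 116 kb at chr19:21058001-21174000, touched ZNF430, ZNF714 and ZNF431.

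Over the whole span, 33.8% of 4461 windows of 1 kb were listed in all 8 libraries, 72.7% in at least 6 and 9.08% in none. The longest run listed in all 8 measured 102 kb (chr19:22669001-22771000) and touched ZNF99, a run of 99 kb touched ZNF208 and 1 of 81 kb touched ZNF257. In steps of 500 kb, the mean listed share was 0.725% from 19 to 19.5 Mb, where no member starts, and 91.1% from 20 to 20.5 Mb. It was 34.0% from 21 to 21.5 Mb, the step with the low stretch, and 95.03% and 94.3% in the steps from 22 to 23 Mb. The step from 24 to 24.5 Mb had 51.2%, and the last listed base of the interval was 24420000 or 24421000 in 7 libraries and 24257000 in mCherry_4 replicate 2. From 23.5 to 24 Mb, mCherry_4 replicates 1 and 2 had 45.4% and 26.4% listed, and the other libraries had 63.2% to 92.6%.

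**Figure D2:**
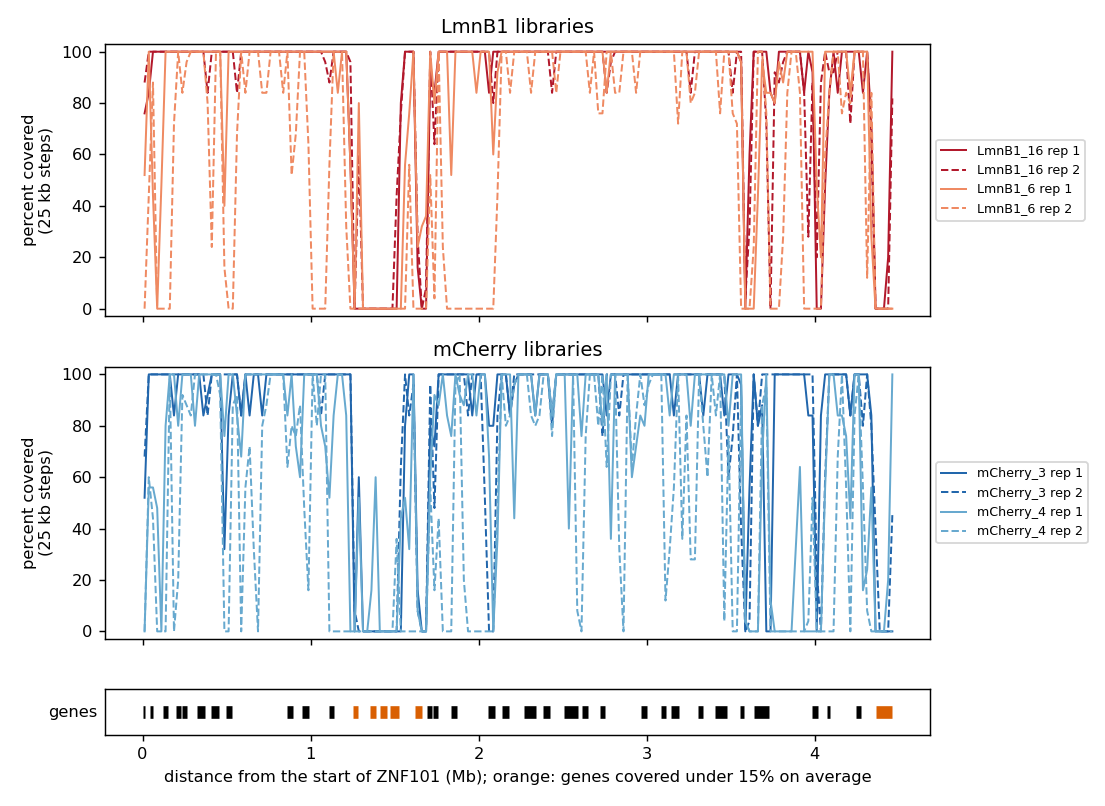
Percent of each 25 kb step covered by H3K9me3 domains (y axis) against distance from the start of ZNF101 in Mb (x axis), for the 4 LmnB1 libraries (upper panel) and the 4 mCherry libraries (lower panel), with gene bodies as blocks beneath. All 8 lines drop to 0 for at least part of the stretch of orange genes, which had a mean under 15%. The dashed lines of LmnB1_6 replicate 2 and mCherry_4 replicate 2 drop at further places. The solid line of mCherry_4 replicate 1 also drops to 0 in several steps between 3.61 and 4.04 Mb.

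Between both sets, genes such as ZNF738, ZNF493, ZNF724, ZNF675 and ZNF101 were covered in part. ZNF738 was at 62.8%, 76.3%, 73.0% and 39.2% in the LmnB1 libraries (LmnB1_16 replicates 1 and 2, then LmnB1_6 replicates 1 and 2) and at 52.7%, 66.2%, 35.8% and 32.4% in the mCherry libraries (mCherry_3, then mCherry_4). ZNF675 was at 38.4%, 58.7%, 79.0% and 0 with LmnB1 and at 32.5%, 61.6%, 0 and 9.30% with mCherry. ZNF101 was at 61.9%, 81.5%, 55.4% and 0 with LmnB1 and at 68.4%, 48.9%, 0 and 0 with mCherry. In all 3 genes the values of both constructs overlapped. ZNF724 was at 70.9% in 3 libraries, at 77.8% in 3, at 22.2% in mCherry_3 replicate 2 and at 0 in LmnB1_6 replicate 2. Its lowest values came from a library of each construct.

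Some genes went from full to no coverage between libraries. ZNF506 and ZNF486 were at 100% in the other LmnB1 libraries and at 0 in LmnB1_6 replicate 2, with 12.9% and 13.5% in mCherry_4 replicate 2. ZNF429 was at 100% in both LmnB1_16 replicates, 76.0% in LmnB1_6 replicate 1 and 0 in LmnB1_6 replicate 2, whereas the mCherry libraries ran from 61.8% to 100%. ZNF66 was at 100%, 100%, 100% and 92.0% with LmnB1 and at 100%, 100%, 83.1% and 0 with mCherry, and ZNF681 was at 0 in mCherry_4 replicate 2 and at 100% in the other mCherry libraries. Each of these drops fell in LmnB1_6 replicate 2 or mCherry_4 replicate 2. ZNF100 was the exception, at 97.3%, 89.8%, 78.6% and 0 with LmnB1 and at 83.9%, 0, 35.7% and 0 with mCherry. By the Euclidean distance of the 8 covered percents, ZNF506 and ZNF486 were each other's nearest member (21.8 percentage points), as were ZNF66 and ZNF681 (20.9) and ZNF93 and ZNF43 (8.81).

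The comparison of LmnB1 with mCherry asks where heterochromatin domains lie when this protein of the nuclear lamina is in excess. No gene of the cluster passed the test. Coverage was fitted with limma over all 2304 genes with a mean of at least 5%, which took in 36 of the 37 members (ZNF714 was not tested), and adjusted over all of them. No member was called, and none had an unadjusted p under 0.05. Covered percent cannot pass 100%, and 21 members had a mean of at least 80%, so a rise had little room in them. ZNF257 and ZNF726, at 100% in all 8 libraries, could show no difference in this measure. Over all genes tested, limma called 0.217% higher and 0.0868% lower with LmnB1, and 3.65% had an unadjusted p under 0.05. The lowest member p was that of ZNF676, with a difference of 9.33 percentage points (SE 5.38, adjusted p = 0.907 by limma). An exact two-sided permutation test per gene had a smallest possible p of 0.0286 and reassigned libraries without regard to clone. After adjustment over so many genes it could hardly call any, so its 0 members and 0 genes carry no weight. Its lowest member p before adjustment was 0.143. The biological replicates of a clone share that clone, and the 2 clones of a construct are the only independent lines behind each p.

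ZNF100 had the largest difference in construct means, 66.4% ± 44.9 with LmnB1 against 29.9% ± 39.7 with mCherry (SD, n = 4 each; difference 36.5 points, SE 37.8). For ZNF66 the means were 98.0% ± 4.0 and 70.8% ± 47.9 (difference 27.2 points, SE 28.6), and without mCherry_4 replicate 2 the difference was 3.63 points. ZNF253 was at 100% in all 4 LmnB1 libraries and at 95.9%, 100%, 82.7% and 23.1% with mCherry, a difference of 24.6 points (SE 21.0), or 7.13 points without mCherry_4 replicate 2. In these 3 genes the SE is nearly as large as the difference or larger. ZNF91, the SVA repressor, was at 100%, 89.5%, 64.6% and 82.9% with LmnB1 and at 60.8%, 94.5%, 49.2% and 50.8% with mCherry (difference 20.4 points, SE 14.8, adjusted p = 0.911 by limma). Its groups overlap through mCherry_3 replicate 2 alone, without which all 4 LmnB1 values lie above the 3 mCherry values, as they do for ZNF253 and ZNF723. No share over all genes was taken for that comparison of 4 with 3 values. When each list was shortened to its better-scoring domains or to equal length, the ZNF91 difference turned to -13.4 or -5.38 points. ZNF429 had the largest difference toward mCherry, 69.0% ± 47.4 against 87.3% ± 18.0, and it turned to 4.71 points toward LmnB1 without LmnB1_6 replicate 2. The remaining large differences, in ZNF101, ZNF681, ZNF675, ZNF626 and ZNF738, ran from 16.1 to 20.4 points with SEs of 13.6 to 32.1. Leaving out single libraries moved ZNF101 down to 9.78 points (without LmnB1_16 replicate 2) and ZNF675 down to 6.49 (without LmnB1_6 replicate 1). Those of ZNF626 and ZNF681 turned to -1.54 and -5.08 points without mCherry_4 replicate 2.

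**Figure D3:**
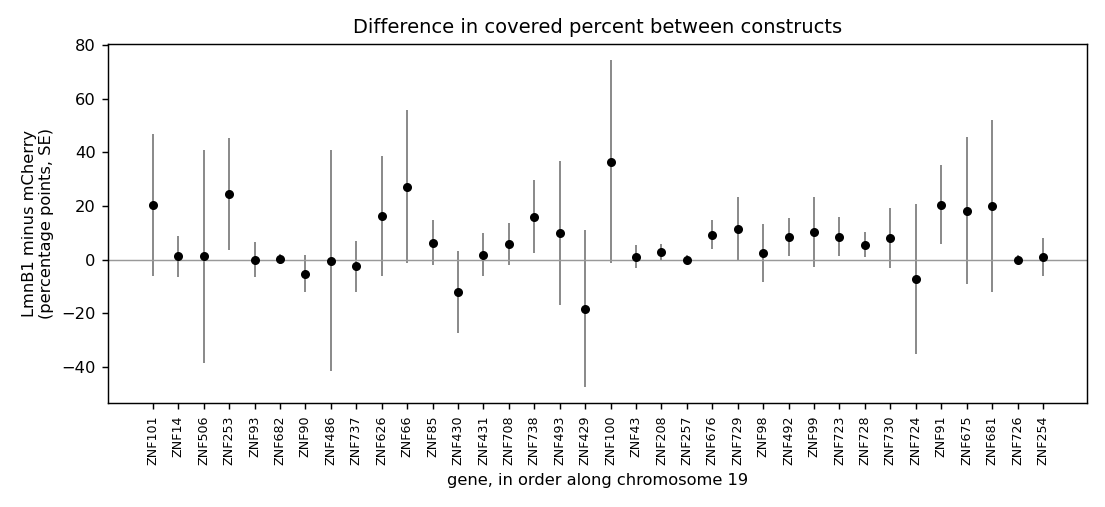
Difference in covered percent, LmnB1 minus mCherry in percentage points (points, with the SE from limma as bars), for the 36 tested genes in chromosomal order. The largest difference, 36.5 points at ZNF100, has an SE of 37.8, and ZNF257 and ZNF726 lie at 0.

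The LmnB1 mean was higher in 27 members, lower in 6 and equal in 4. The median difference over the 37 members was 5.61 points, beside 3.73 over all genes tested, so both medians lay toward LmnB1. In 0 members did all 4 LmnB1 values lie above, or all below, the 4 mCherry values, beside 2.69% of the genes tested above and 0.391% below. With the mCherry_3 replicates averaged, the values lay apart in 2 members, ZNF253 and ZNF723, both at 100% in all 4 LmnB1 libraries. Sets of 4 and 3 values lie apart more easily, and no share over all genes was taken for them. This count therefore has no background to be read against. Summed over the member bodies, coverage was 73.0% ± 9.69 with LmnB1 and 66.3% ± 10.9 with mCherry (SD, n = 4), a difference of 6.66 points that is smaller than either SD. The 4 LmnB1 libraries had 78.5%, 79.3%, 75.4% and 58.7%, and the 4 mCherry libraries had 73.2%, 73.0%, 68.9% and 50.2%. LmnB1_6 replicate 2 lay below 3 of the mCherry libraries. Without mCherry_4 replicate 2 the difference was 1.29 points, without LmnB1_6 replicate 2 it was 11.4, and with only the better-scoring domains of each list it was 13.85.

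The parts of the span outside any protein-coding gene body moved with the gene bodies, at 81.0% ± 15.5 with LmnB1 and 73.0% ± 20.9 with mCherry. The lowest libraries were again LmnB1_6 replicate 2 at 57.9% and mCherry_4 replicate 2 at 44.5%. Their lists are also the shortest over the whole genome, and the part of list length in the differences within the cluster was not tested beyond the alternatives with equal length. With lists cut to equal length, the difference over the member bodies was 9.12 points toward LmnB1, beside 6.66 with the full lists.

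**Figure D4:**
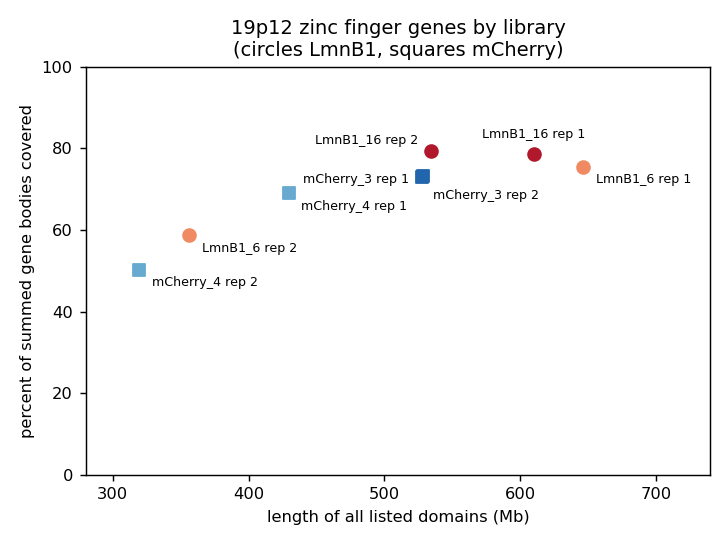
Percent of the summed bodies of the 37 genes covered by domains (y axis) against the length of all listed domains in Mb (x axis), 1 point per library. mCherry_4 replicate 2 (320 Mb, 50.2%) and LmnB1_6 replicate 2 (357 Mb, 58.7%) lie lowest on both axes, and the other 6 libraries lie between 68.9% and 79.3%.

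Single domains often ran over several genes. In LmnB1_16 replicate 1 the longest domain on a member measured 1518 kb and touched 13 members. In the other LmnB1 libraries the longest measured 528, 807 and 243 kb, and in the mCherry libraries 538, 657, 230 and 189 kb. Domains touching members numbered 12, 19, 18 and 21 in the LmnB1 lists and 25, 18, 32 and 31 in the mCherry lists, with the highest numbers in the mCherry_4 clone. Neighbouring genes within a domain share its ends and its enrichment and are not independent values.

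The height of the enrichment in the cluster was close to that of all domains. Pooled over the domains on members, the log2 ratio of H3K9me3 to input, scaled to depth, was 1.16, 0.93, 0.95 and 0.73 in the LmnB1 libraries and 0.85, 0.88, 0.91 and 0.71 in the mCherry libraries. Over all domains of the same lists it was 1.14, 0.95, 0.93 and 0.71, and 0.89, 0.88, 0.86 and 0.72. In each library the cluster and the whole list differed little beside the spread among libraries. Where listed in all 8 libraries, the log2 of the domains on ZNF208 and ZNF257 averaged 1.00 and 0.99, and on ZNF726 0.80, although ZNF726 was fully covered.

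Where a domain reached only 1 end of a gene, that was more often the far end. Ends were read as the first and the last kb of the gene body on its strand, for the 29 members with a strand. The first kb was covered in 20, 17, 16 and 9 genes in the LmnB1 libraries and in 17, 18, 14 and 10 in the mCherry libraries. The last kb was covered in 25, 26, 24 and 16 genes with LmnB1 and in 24, 24, 19 and 15 with mCherry. The last kb exceeded the first in 8 of 8 libraries, by 5 to 9 genes. Genes with only the last kb covered numbered 6 to 9 per library, and genes with only the first numbered 0 to 2.

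**Figure D5:**
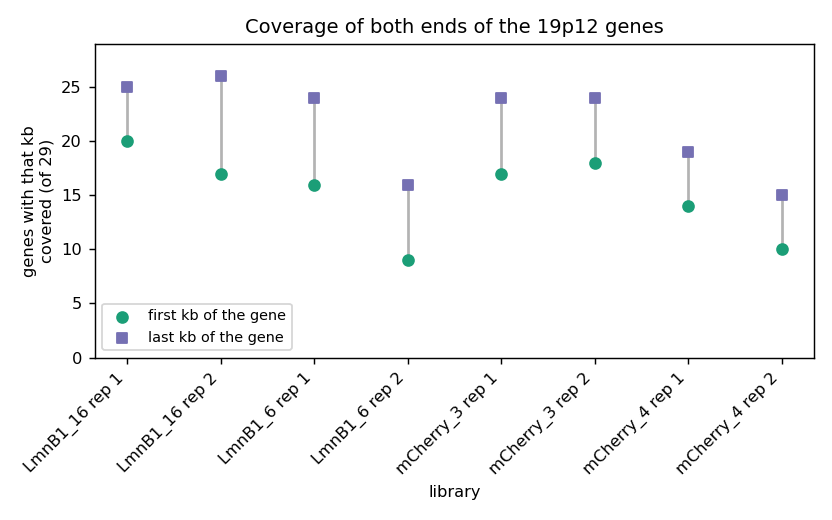
Number of the 29 genes with strand whose first kb (circles) or last kb (squares) lay wholly within a domain (y axis), for each library (x axis). In every library the square lies above the circle, from 15 against 10 in mCherry_4 replicate 2 to 26 against 17 in LmnB1_16 replicate 2.

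ZNF724 carried this pattern most often, with the last kb covered and the first not in 7 libraries, followed by ZNF708, ZNF493 and ZNF675 in 6, ZNF101 in 5 and ZNF254 in 4. No member had only the first kb covered in 4 or more libraries. The promoters of ZNF724, ZNF708, ZNF675, ZNF101 and ZNF254 were among the 9 covered in no library, so partial coverage of these bodies left out the start. ZNF91 went both ways, with only the first kb covered in 2 libraries and only the last in 2. Averaged over the libraries, 25% of the members had only the last kb covered and 2.59% only the first. Among ZNF genes elsewhere on chromosome 19 these shares were 32.6% and 3.42%, and among ZNF genes on other chromosomes 17.7% and 1.72%. For tested genes without a ZNF symbol they were 10.5% and 7.44%. The difference between the lists was not tested, and the member and chromosome 19 values show the pattern in both.

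The neighbours before the cluster were mostly outside the domains, and those within its span were covered. Of the 24 other protein-coding genes that start in the interval, 22 start before ZNF101, and 20 of these were at 0 in all 8 libraries. Just 2 start among the zinc finger genes. RPSA2 ranged from 49.7% to 100%, and LOC124904660 was at 100% throughout. Of the ZNF genes elsewhere on chromosome 19, 213 in all, the median of the 8-library means was 63.6%, against 87.7% in the cluster, and 13 (6.10%) were at least 90% covered in every library. The 268 ZNF genes on other chromosomes had a median of 0.313%, and 10 of them (3.73%) were at least 90% covered throughout. All genes tested, a set limited to a mean of at least 5%, had a median of 35.3%, and all 20033 protein-coding genes had a median of 0. These lists are described and were not tested against each other.

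The genes that encode the silencing machinery used by KRAB zinc finger proteins had about as little coverage as protein-coding genes at large. Of 22 such genes, 19 (86.4%) were at 0 in all 8 libraries, beside 79.3% of all 20033 protein-coding genes. TRIM28, the HP1 genes CBX1, CBX3 and CBX5, and SUV39H1 were among the 19. SETDB1 was at 7.80% in LmnB1_16 replicate 1 and at 0 elsewhere, and ATF7IP, its partner, was at 5.10%, 3.64% and 3.64% in LmnB1_16 replicates 1 and 2 and LmnB1_6 replicate 1. ZNF274, itself a KRAB zinc finger gene on chromosome 19 whose protein is known to recruit SETDB1 to the far ends of zinc finger genes, was at 100% in all 4 LmnB1 libraries and at 100%, 100%, 93.6% and 87.1% with mCherry. It was the only gene of this list with enough coverage to be tested, and limma did not call it. The other genes of the list were not tested.

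Gene size and promoter CG content gave little order to the coverage of members. Across the 37 genes, mean coverage and gene length had a Pearson correlation of -0.089 and a Spearman correlation of 0.070. Across the 29 promoters, CG count and mean coverage had 0.034 and 0.023. Members share domains and libraries, so these are descriptions without a p.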

How the data were processed

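H3K9me3 Cut&Run was analysed in 8 libraries of hTERT RPE-1 cells, 4 per construct, and the 1 input sample was not used on its own. Per the submitters' processing notes, SICER, DiffBind 3.0.15, DESeq2 and deepTools were used with GRCh38 and hg38, and the sources used here name no aligner. The authors deposited 1 domain list per library, whose starts fall on steps of 1 kb. Each deposited list gives the count of H3K9me3 reads and of input reads per domain, as deposited whole numbers. The authors' lists also give a p-value, a p-value adjusted for false discovery, a score and a log2 enrichment over input. Counts exist only for listed domains, so no count model was fitted, and the deposited scores served to rank domains in the alternative that keeps the upper 50% of each list.

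Gene starts and ends came from a RefSeq table of GRCh38.p14, which has no exons, and strands and promoters from a second RefSeq table. A gene's covered percent is the share of its body within listed domains. Genes with a mean of at least 5% went into a limma fit (version 3.58.1, R 4.3.3). Clones entered as random blocks, and p-values of all 2304 genes were adjusted by Benjamini-Hochberg, with a threshold of 0.05. A value past the threshold is a call. The function was tested on simulated data. Planted shifts in that test could pass full coverage, so it does not show how the fit performs on genes near full coverage. Exact permutation tests ran over 70 assignments. Other steps ran in Python 3.11.15 (pandas 2.3.3, numpy 2.4.6, scipy 1.17.1), and plots were drawn with matplotlib 3.10.9. Precision is limited by n = 4 per construct, by the depth of each library, 2855378 to 10321442 reads in domains, and by the steps of 1 kb.

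Members named were those past the threshold, the 10 with the largest difference, the 10 with the highest lowest value, the 6 with the widest range and those at 0 in every library; others were named after their values were seen. The members, gene lists and tests were chosen with earlier results of these data known. Zinc fingers per protein were planned and are not analysed here. Alternatives were the upper 50% of each list, equal listed length, domains of at least 10 kb, domains under 10 kb apart joined, genes extended by 5 kb, other filters, no clone block, a replicate block, centring on the library mean, an arcsine scale, and leaving out each library. Averaging the mCherry_3 replicates and leaving out both shortest lists were chosen after seeing the data.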

Additional observations from a re-analysis of the deposited data

Results flagged for a closer look

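Within the 4 libraries of a construct, 18 values of the named genes stood apart from the other 3, by a gap to the nearest value that exceeds Dixon's critical value for 4 samples. This was checked in 37 groups of 4 values that were not all equal. Chance alone would mark about 5% of groups of unrelated values, but many of these groups hold 3 libraries at 100%, where any difference in the fourth is marked. Of the 18 values, 9 came from LmnB1_6 replicate 2 and 6 from mCherry_4 replicate 2, the libraries with the shortest lists.

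In LmnB1_6 replicate 2, ZNF486 and ZNF506 were at 0, while the other 3 LmnB1 libraries were at 100% for both. ZNF681 was at 79.69% in that library, ZNF90 at 79.15%, ZNF93 at 85.56%, ZNF66 at 92.0%, ZNF43 at 93.5%, ZNF626 at 93.82% and ZNF208 at 94.38%. All of these lay below the other LmnB1 values.

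In mCherry_4 replicate 2, ZNF66 and ZNF681 were at 0, ZNF486 was at 13.49% and ZNF626 at 28.82%. ZNF93 was at 85.56% and ZNF43 at 89.39% there. In the other 3 mCherry libraries, ZNF66 lay between 83.1% and 100% and ZNF681 was at 100%. The remaining 3 values came from other libraries, with ZNF14 at 81.84% in LmnB1_6 replicate 1, ZNF682 at 98.86% in mCherry_3 replicate 1, and ZNF208 at 100% in mCherry_3 replicate 2, above the 94.38% of the other mCherry libraries.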

How the results depend on the processing

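No member was called in any of 22 alternatives, the exact permutation test among them. The lowest adjusted member p was 0.620, by limma without both shortest lists. Over all genes, 7 were called. Leaving out single libraries, or both shortest lists, gave 8 to 73 (60 without LmnB1_6 replicate 2). The exact permutation test, which could hardly call any gene, gave 0. Replicate numbers name replicates within a clone: same-numbered libraries deviated with correlations between -0.025 and 0.099 across genes, so they were not treated as pairs, and a fit with the replicate number as a block called 7 genes and 0 members. The 4 members with at least 90% in every library became 2 with the upper 50% of each list or equal listed length, 8 with domains under 10 kb apart joined, 17 at a limit of 50%, and 4 to 14 when libraries were left out (10 without mCherry_4 replicate 2). The 1 member at 0 in every library became 7 with the upper 50%, 2 with equal length, and 1 to 2 with libraries left out (2 without mCherry_4 replicate 1). Members whose groups did not overlap numbered 0, then 2 with the mCherry_3 replicates averaged and 0 to 3 with libraries left out. For these alternatives no share over all genes was taken. The difference over all member bodies stayed toward LmnB1, from 1.29 to 13.85 points over the alternatives run.

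Of 285 values of named genes with a main difference other than 0, 246 kept their sign under the alternatives, 12 fell to 0 and 27 reversed. Of 60 values of the 4 genes with a main difference of 0, 46 were still 0. None was called. With the upper 50% of each list, differences were 50 points in ZNF486, 69.8 in ZNF90, -13.4 in ZNF91, 73.4 in ZNF43 (from 1.03) and -25 in ZNF726 (from 0). With equal length they were 21.6 in ZNF486, 19.8 in ZNF90, -5.38 in ZNF91, -7.25 in ZNF738, 58 in ZNF506 (from 1.33), 73 in ZNF66 (from 27.2) and -50 in ZNF726. Joining domains gave -2.12 in ZNF506, and averaging mCherry_3 gave 5.84 in ZNF486. With libraries left out, they ran from -4.42 to 5.77 in ZNF14, -28.6 to 4.71 in ZNF429, -1.63 to 2.65 in ZNF43, -21.0 to 24.6 in ZNF486, -18.9 to 26.3 in ZNF506, -1.54 to 22.2 in ZNF626 and -5.08 to 28.3 in ZNF681. The cause of these reversals was not tested. A gene at 0 may lie just below the authors' threshold, and the part of depth in this was not tested. The library with the lowest depth relative to input, mCherry_4 replicate 1 (0.421), listed 429 Mb. The shortest lists came at depths of 0.859 (mCherry_4 replicate 2) and 0.902 (LmnB1_6 replicate 2).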
